A study of Prunus persica with 2 samples.

Results

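The single-copy, single-arm predicted miRNAs of 21 nt were the largest group of single-copy predicted miRNAs of peach fruit, with 59 of 275 predicted loci. A locus was counted here when the small RNA list of the fruit gave it 1 row (1 arm of the hairpin, 5p or 3p), when that row was 21 nt long and when the same sequence stood under no other predicted locus. Of the 8 loci left out by name, 3 met these conditions and 5 did not. The 8 include the most abundant predicted loci, and also m0231 (78 reads) and m0233 (8 reads). Counts of the 8 ran from 8 to 6973, with a median of 3838.5. Taking the more abundant arm of each locus, the 8 held 28380 of the 51968 reads of all predicted loci. Read counts, read shares, likeness to known miRNAs and degradome pairs of the group are those that remain without them. The libraries came from fruit of field-grown trees of the peach (Prunus persica) cultivar 'Troubadour', for which no treatment is named. Fruit RNA of 5 dates was mixed in equal amounts, from 35 through 55, 75 and 90 to 105 days after full bloom, for the 1 small RNA library, and the series holds 1 degradome library of fruit. Neither library has a replicate and the stages cannot be told apart, so values are given with counting intervals and without tests between groups. The small RNA list holds 886 sequences with 2308209 raw reads, of which 557 are known miRNAs and 329 are arms of predicted loci with 53349 reads.

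In plants, a miRNA is cut by a Dicer-like enzyme from a hairpin precursor as a short duplex of the miRNA and its partner strand, the miRNA*, with short 3′ overhangs on both strands. One strand is loaded into an ARGONAUTE protein and the other is usually degraded, so that the miRNA* is normally rarer in a library. AGO1, the main ARGONAUTE of plant miRNAs, prefers strands that begin with U. The loaded miRNA guides cleavage of transcripts that pair with it almost fully, opposite the middle of the miRNA, and a degradome library captures the 5′ ends of the cut fragments. The 21-nt class is the usual product of DCL1, the Dicer-like enzyme of most plant miRNAs, whereas longer small RNAs of other Dicer-like enzymes are often linked to DNA methylation.

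The 10 members with the highest counts are shown because they carry most of the reads of the group. U is written as T, and capitals mark the seed, bases 2 to 8 from the 5′ end.
m0159-3p: tTATTGGTcggggatagcaaa
m0017-5p: tAGGGAAGagtagagaacgac
m0161-3p: cTGAGATTggtagcaggctta
m0070-5p: tCCAGTGGaaggtgagtgctg
m0205-5p: gCGGCATCatcaagattcaca
m0166-3p: tGAAGCTCgttgggggggaat
m0259-3p: tTCTTGTAtgattgtgacact
m0138-3p: tGGACGTCtagaaaaatacgg
m0249-5p: aAATCGTAgaaattgaggcat
m0186-5p: tGGAGGCAgcggttcatcgat

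The group was led by m0159-3p with 548 reads, for which the exact 95% Poisson interval was 503 to 596. m0017-5p had 536 reads (492 to 583) and m0161-3p had 488 (446 to 533), so the intervals of the first and the second overlapped almost fully and that of the third overlapped both. m0070-5p followed with 407 reads (368 to 449), an interval that still touched that of m0161-3p but lay below those of the first 2. m0205-5p had 210 reads (183 to 240) and stood apart from its neighbours on both sides. Such intervals describe counting error alone. The reads were amplified and carry no molecular identifiers, so they do not count molecules independently.

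Below these 5 members the counts fell off without a gap. m0166-3p had 106 reads, m0259-3p 98, m0138-3p 97, m0249-5p 85 and m0186-5p 77, and the interval of m0166-3p (86.8 to 128) overlapped that of m0186-5p (60.8 to 96.2). The 4 most abundant members held 54.4% of the 3638 reads of the group (exact Clopper-Pearson interval 52.8% to 56.0%), and the 10 most abundant held 72.9% (71.4% to 74.3%). In all, 6 members had at least 100 reads, 36 had 10 to 99 and 17 had fewer than 10. The lowest count was 5, in m0033-5p, m0035-5p and m0150-3p, with an interval of 1.62 to 11.7.

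The median count was 16 reads, with quartiles of 9 and 47.5. Over all 275 predicted loci, taking the more abundant arm where both were listed, the median was also 16. It was 12 in the 56 single-copy loci of 23 nt and 15 in the 77 single-arm loci whose sequence was shared, against 79 in the 50 loci listed with both arms. The 59 members together made up 6.82% of the reads of predicted arms (6.61% to 7.04%) and 0.158% of all listed reads. The abundant loci left out by name count in these totals but not in the group. The shares were not recomputed with them put back.

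**Figure D1:**
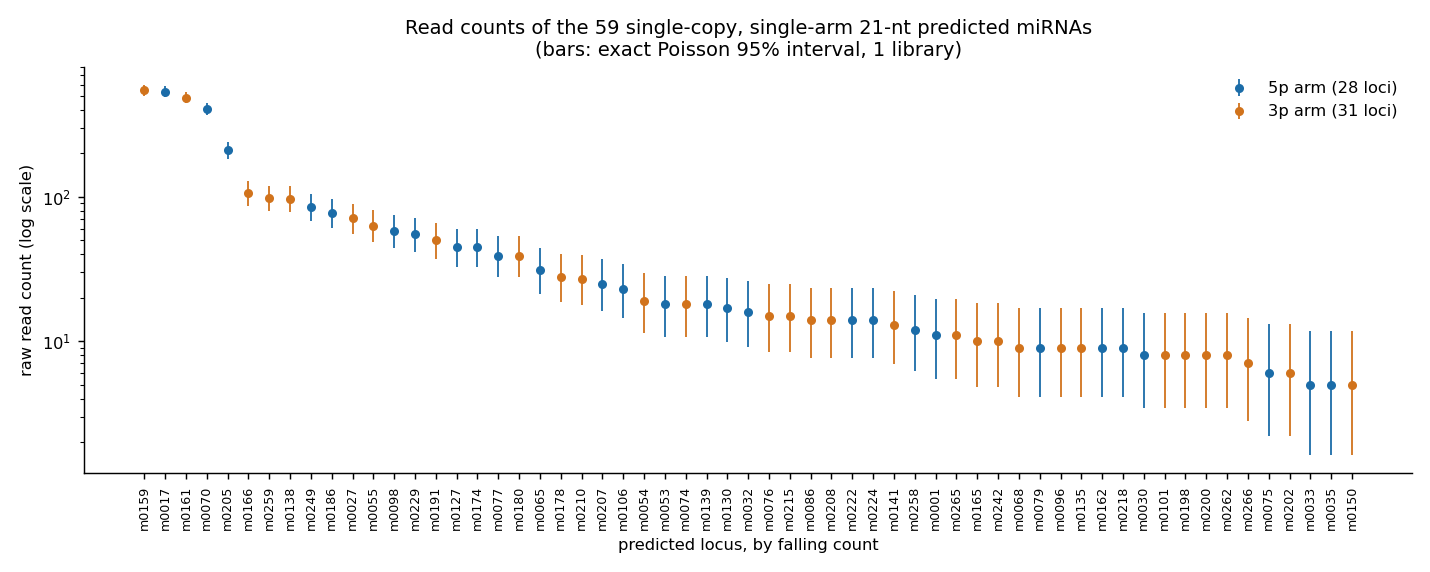
Raw read count of each of the 59 loci on a log axis, ordered by count and coloured by arm, with exact Poisson 95% intervals from 1 library. The first 4 loci lie between 407 and 548 reads, m0205 stands alone at 210, and the rest run down without a gap to 5.

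U was the most frequent first nucleotide. It began 31 of the 59 members, or 52.5% (39.1% to 65.7%), ahead of A with 16 members or 27.1% (16.4% to 40.3%). C and G began 6 members each, or 10.2% (3.82% to 20.8%). In the 23-nt single-copy loci U began 16 of 56 or 28.6% (17.3% to 42.2%), and in the loci listed with both arms it began the more abundant arm of 18 of 50 or 36.0% (22.9% to 50.8%). In the small single-copy groups of neighbouring length U was as frequent as in the members or more so, with 8 of 15 at 22 nt (53.3%, 26.6% to 78.7%) and 6 of 10 at 20 nt (60%, 26.2% to 87.8%). Over all predicted loci the share was 40.7% (34.9% to 46.8%). The intervals of the 21-nt and 23-nt groups overlapped between 39.1% and 42.2%.

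Counted by reads instead of loci, U stood first in 62.9% of the reads of the group (61.3% to 64.4%), C in 18.3%, A in 10.3% and G in 8.58%. Single abundant loci set these shares: m0159-3p, m0017-5p and m0070-5p begin with U, and m0161-3p alone gave 488 of the 665 reads that begin with C. The median count was 17 reads for members that begin with U and 10 for those that begin with A. The 16 members with A first held 374 reads together, and m0249-5p was the highest of them with 85.

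**Figure D2:**
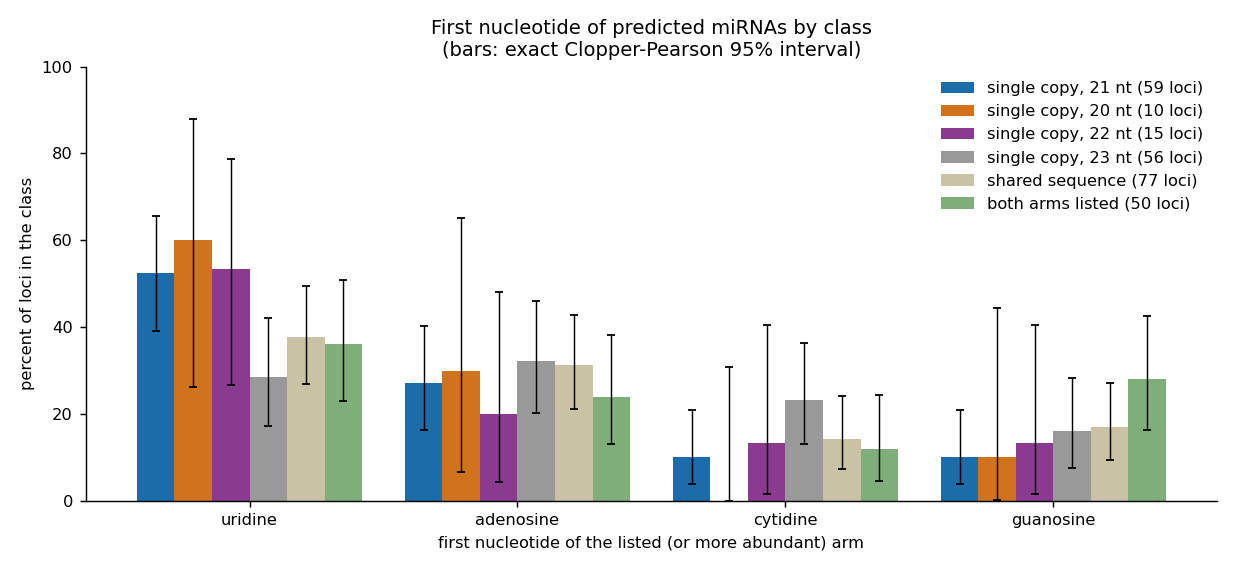
Percent of loci whose listed arm (the more abundant one where both are listed) begins with each nucleotide, in 6 classes of predicted loci, with exact Clopper-Pearson 95% intervals. Uridine begins 52.5% of the single-copy 21-nt loci and 28.6% of the single-copy 23-nt loci, with slightly overlapping intervals, and 53.3% and 60% of the few loci of 22 and 20 nt.

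Both arms of the hairpins were about equally represented. The 5p arm was listed for 28 members, or 47.5% (34.3% to 60.9%), and the 3p arm for 31. The 5p members had 1807 reads in all with a median of 18, and the 3p members had 1831 with a median of 14. U began 17 of the 28 members of the 5p arm and 14 of the 31 of the 3p arm.

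The GC content had a median of 42.9%, equal to the median over all predicted loci, with quartiles of 38.1% and 52.4%. The lowest value was 19.05%, in m0200-3p (8 reads), and the highest was 61.9%, in m0139-5p (18 reads) and m0191-3p (50 reads). By position along the 21 nt, U was the most frequent base at position 1 but not at positions 2 and 3, where it fell to 23.7% and 18.6%. A was the most frequent base at positions 20 and 21, with 26 and 23 of the 59 members. Some members were strongly one-sided: m0074-3p had pyrimidines at 19 of 21 positions, and m0262-3p (8 reads) had purines at 18, ahead of m0017-5p, m0033-5p, m0068-3p and m0178-3p with 17 each.

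No member had the sequence of a listed known miRNA, and none came within 3 mismatches of one over an ungapped overlap of at least 18 nt, against 12 of all 275 predicted loci (4.36%). Those 12 include 2 of the 8 loci left out by name. The absence in the group thus depends in part on the choice of members, and it was not recomputed with those loci put back. With 4 mismatches allowed, 1 member did, m0135-3p (9 reads), against 34 of 275 (12.4%), of which 14 were shared sequences, 14 were loci with both arms listed and 2 were 23-nt loci. Among the predicted sequences, m0075-5p and m0205-5p resembled each other with 2 mismatches over 21 nt. m0027-3p (71 reads) differed at 2 of 21 positions from m0072-3p (10 reads), a 23-nt arm. m0106-5p (23 reads) differed at 2 of 19 positions from m0184-5p (1 read).

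Within the group all seeds were unique, with 59 distinct seeds in 59 members. The rule had already left out sequences shared between predicted loci, and distinct seeds were not counted in the other classes. Outside the group, m0161-3p shared its seed TGAGATT with the known miR5632, which had 154 reads, and with miR5490, which had 1. m0027-3p shared the seed ATTAGAG with m0072-3p, and m0265-3p (11 reads) shared the seed AAATTTC with the 23-nt m0115-3p and m0116-3p, listed with 22 reads each. A shared seed in plants does not by itself make shared targets, since plant miRNAs pair along most of their length.

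Members were also compared with known miRNAs for pairing of the kind found in a duplex of miRNA and miRNA*. Pairing was counted without gaps over at least 18 positions, with G-U pairs allowed and a 3′ overhang of 1 to 3 nt, and at most 4 positions unpaired. By this rule 35 of the 59 members had a known partner, against 133 of all 275 predicted loci. With 5 unpaired positions allowed it was 52 members (88.1%), against 237 of all 275 loci (86.2%). Most partners were rare: 282 of the 557 known miRNAs had 1 read, and 21 of the 35 members paired with none that had at least 10 reads. Those 21 were m0054, m0070, m0086, m0106, m0127, m0130, m0135, m0150, m0161, m0162, m0174, m0178, m0180, m0198, m0200, m0222, m0258, m0259, m0262, m0265 and m0266.

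With known miRNAs of at least 10 reads, 14 of the 59 members had a partner (23.7%), against 37 of all 275 predicted loci (13.5%). It was 3 of the 10 single-copy loci of 20 nt, 2 of the 15 of 22 nt, 8 of the 56 of 23 nt and 4 of the 77 with a shared sequence. With at most 2 positions unpaired it was 6 of 59 (10.2%), against 12 of 275 (4.36%) over all loci, 2 of 10 at 20 nt, 1 of 15 at 22 nt, 0 of 56 at 23 nt and 2 of 77 with a shared sequence. The 6 members were m0075-5p and m0205-5p with miR172, m0191-3p and m0242-3p with miR530, m0098-5p with miR1511 and m0141-3p with miR1450. m0076-3p with miR393 and m0186-5p with miR162 had 3 unpaired positions. m0139-5p also had 3, with miR479 (449 reads), and m0166-3p had 4 with miR477 (1626 reads). m0027, m0053, m0055 and m0074 had 4 unpaired positions with miR479, miR157, miR851 and miR3951, in that order.

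Whether the partner lay on the other arm of the same hairpin was read from the hairpin sequences, a comparison chosen after the pairings were seen. Hairpins of 56 of the 59 members were used; those of m0068, m0191 and m0229 were not analysed here. A known miRNA lay on the other arm without a mismatch in 5 of the 56 hairpins (8.93%), with at most 1 mismatch in 6 and with at most 2 in 8. Over all predicted loci the counts were 15 of 266 without a mismatch (5.64%), 18 with at most 1 and 21 with at most 2 (7.89%). Without a mismatch it was 2 of 10 for the 20-nt loci, 1 of 15 for the 22-nt loci and 1 of 52 for the 23-nt loci. It was 3 of 75 for the shared sequences, 1 of 50 for the loci with both arms listed and 2 of 8 for those left out by name. miR1450 was at best 10 mismatches away from any stretch of the m0141 hairpin. The partners of at least 10 reads named above for m0027, m0053, m0055, m0074 and m0139 were at best 8 to 10 mismatches away from theirs. A pairing between listed sequences thus often came without a shared hairpin.

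The hairpins of m0186, m0098, m0076 and m0139, 4 of the 5 with a known miRNA on the other arm without a mismatch, are shown with that of m0205, where the listed miR172 has 1 mismatch. Capitals mark the predicted miRNA and the stretch of the other arm where the known one was placed, and DNA letters are used.
m0186 hairpin: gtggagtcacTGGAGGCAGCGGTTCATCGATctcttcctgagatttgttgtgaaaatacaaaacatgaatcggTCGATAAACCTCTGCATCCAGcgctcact
m0098 hairpin: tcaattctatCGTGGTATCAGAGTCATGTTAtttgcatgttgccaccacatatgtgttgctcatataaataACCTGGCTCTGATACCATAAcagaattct
m0076 hairpin: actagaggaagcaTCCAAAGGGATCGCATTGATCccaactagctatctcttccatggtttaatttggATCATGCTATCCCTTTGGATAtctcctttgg
m0139 hairpin: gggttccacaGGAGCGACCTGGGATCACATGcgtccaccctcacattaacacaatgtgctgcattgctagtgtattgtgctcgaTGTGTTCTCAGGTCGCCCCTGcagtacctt
m0205 hairpin: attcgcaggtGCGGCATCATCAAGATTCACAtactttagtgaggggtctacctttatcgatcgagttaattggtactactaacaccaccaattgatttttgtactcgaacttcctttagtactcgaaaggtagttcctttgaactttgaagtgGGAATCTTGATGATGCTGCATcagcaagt
These lie on scaffold 5 at 16885784 to 16885885 (minus strand), scaffold 3 at 8575410 to 8575509 (plus), scaffold 2 at 22650083 to 22650180 (plus), scaffold 4 at 23714196 to 23714309 (plus) and scaffold 6 at 4912768 to 4912949 (minus), in the order shown. The sources used here do not name the genome release for these places, and no gene annotation of it was used here.

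In the hairpins of m0186, m0098 and m0076 the predicted arm was the rarer strand. miR162, a family known for the transcript of DCL1, had 403 reads (365 to 444) against 77 of m0186-5p, so the predicted arm made up 16.04% of both (12.9% to 19.6%). miR1511 had 325 reads (291 to 362) against 58 of m0098-5p (44.0 to 75.0), which gave 15.1% (11.7% to 19.1%). miR393, a family known for transcripts of TIR1-like auxin receptors, had 106 reads (86.8 to 128) against 15 of m0076-3p (8.40 to 24.7), which gave 12.4% (7.11% to 19.6%). The 3 shares lay close together, with overlapping intervals.

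The order was the other way round in the hairpin of m0139. m0139-5p had 18 reads (10.7 to 28.4) and miR398, known for copper-linked targets such as superoxide dismutases, had 3 (0.619 to 8.77), so the predicted arm made up 85.7% of both (63.7% to 97.0%). Known sequences are listed once per name, so a known count can hold reads of other loci with the same sequence, and variants of the listed sequence are not in it.

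miR172, known for AP2-like transcripts, met 2 of the hairpins, neither without a mismatch. The other arm of the m0205 hairpin differed from the listed miR172 by A1G, counted from the 5′ end of the miRNA with the miR172 base first, and paired with m0205-5p at all but 1 of 19 positions. m0205-5p had 210 reads and miR172 had 373 (336 to 413). In the m0075 hairpin, on scaffold 2, the differences were A1G and T21G, and m0075-5p had 6 reads (2.20 to 13.1). The members themselves differed by G2C and A3G, with the base of m0075-5p first. As the listed miR172 stands without a mismatch in neither hairpin, its 373 reads cannot be divided between them.

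The hairpin of m0242, on scaffold 7, held the listed miR1030 (1 read) on the 5p side without a mismatch. It also held miR530 (14 reads) there, with the differences T18C and G20C. m0242-3p had 10 reads (4.80 to 18.4). With a 3′ overhang of 1 to 3 nt, miR1030 left 8 of 19 positions unpaired with m0242-3p, though 20 of its bases paired with that arm in the fold. m0166-3p, with 106 reads, faced a stretch that differed from the listed miR473 (86 reads, 68.8 to 106) by A13G and A21C. The listed miR473 is the listed miR477 without its last base. miR477 had 1626 reads and at best 3 mismatches to this hairpin, so the 86 reads are not all of the known strand. The mature sequences of m0191-3p, m0242-3p, m0075-5p and m0205-5p and of the known miRNAs they pair with are shown to compare them, with seeds in capitals.
m0191-3p: aGGTGCAGgtgccaatgcagg
m0242-3p: aGGTGCAAgtgtaagtgcaga
miR530: tGCATTTGcacctgcacttgt
m0075-5p: gGAGCATCatcaagattcaca
m0205-5p: gCGGCATCatcaagattcaca
miR172: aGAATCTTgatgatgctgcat
m0191-3p (50 reads, 37.1 to 65.9) and m0242-3p differed at 5 of 21 positions, and each left 1 of 19 positions unpaired with miR530. By the limit of 3 mismatches they were not alike.

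**Figure D3:**
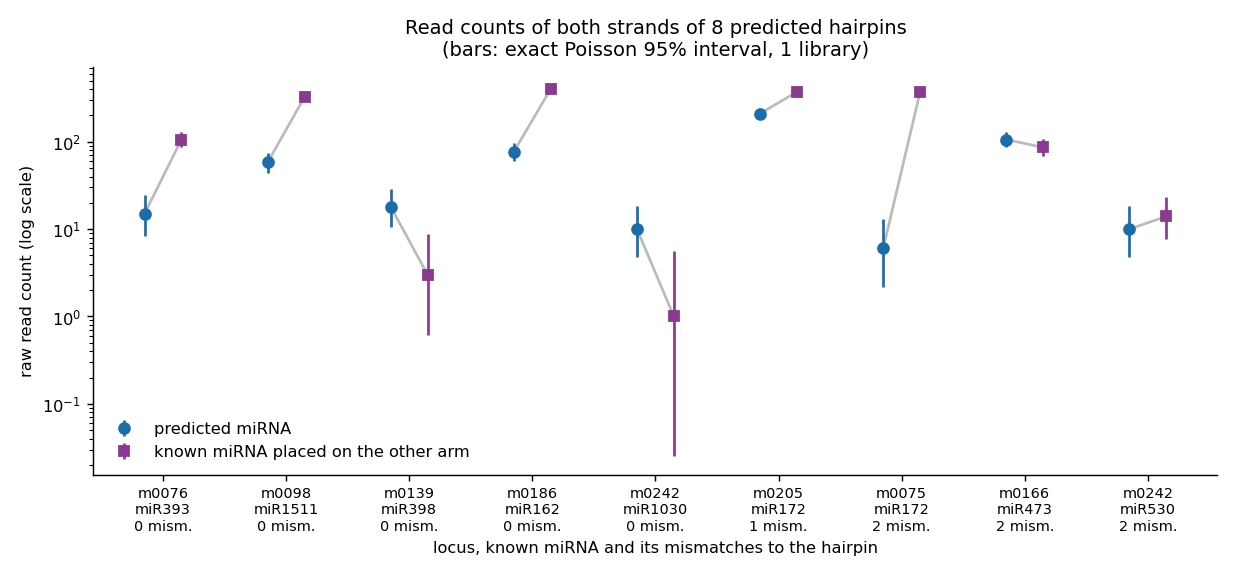
Raw read counts of a predicted miRNA and of the known miRNA placed on the other arm of its hairpin, on a log axis, for 8 hairpins (m0242 with 2 known miRNAs), with exact Poisson 95% intervals from 1 library. The known strand is higher for m0076, m0098 and m0186, and the predicted strand is higher for m0139, with 18 reads against 3. For m0166 the known miRNA drawn is miR473, not miR477, which is 1 base longer and had 1626 reads. The 373 reads of miR172 are drawn for both m0205 and m0075, though neither hairpin holds the listed sequence without a mismatch.

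The hairpins of the members were 78 to 352 nt long, with a median of 139.5 nt, and lay on 9 scaffolds, 37 on the plus and 19 on the minus strand. Their minimum free energy at folding was -22.6 kcal/mol in m0174 and -171.3 kcal/mol in m0202, with a median of -51.6. Per nucleotide the median was -0.40 kcal/mol, against -0.23 in the 52 hairpins of the 23-nt loci -0.39 in the 50 hairpins with both arms listed and -0.32 over all 266 hairpins. A stable hairpin with at least partly paired arms was a condition of the prediction itself, so these values describe the group and are no separate sign of it.

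Within the fold, 43 of the 56 members were paired at 18 or more of their 21 positions, and 12 were paired at all 21: m0054, m0055, m0065, m0077, m0159, m0178, m0202, m0208, m0218, m0258, m0259 and m0262. Over all 266 hairpins 26 had a fully paired arm, with 8 of 50 where both arms were listed and 0 of 52 at 23 nt. The median was 19 paired positions in the members, in the loci with both arms listed and over all hairpins. The count at 18 or more was not made over all hairpins. m0033-5p and m0180-3p were paired at the fewest, 15 and 14. The hairpins of m0159, the most abundant member, of m0259, with the lowest energy per nucleotide in the group, and of m0174, with the weakest total folding energy, are shown with the listed arm in capitals.
m0159 hairpin: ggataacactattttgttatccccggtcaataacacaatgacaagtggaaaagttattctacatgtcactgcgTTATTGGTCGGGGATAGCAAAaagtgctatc
m0259 hairpin: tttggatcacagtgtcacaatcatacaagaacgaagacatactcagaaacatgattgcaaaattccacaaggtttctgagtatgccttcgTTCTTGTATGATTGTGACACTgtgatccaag
m0174 hairpin: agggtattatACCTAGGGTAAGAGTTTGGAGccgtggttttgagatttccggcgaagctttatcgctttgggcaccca
The m0159 hairpin lies on scaffold 5 at 190969 to 191072 (plus strand), the m0259 hairpin on scaffold 8 at 14704056 to 14704176 (plus) and the m0174 hairpin on scaffold 5 at 5507144 to 5507221 (minus). m0174-5p had 45 reads (32.8 to 60.2) and paired at 16 positions, while m0259-3p had 98 (79.6 to 119) and paired at 21.

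**Figure D4:**
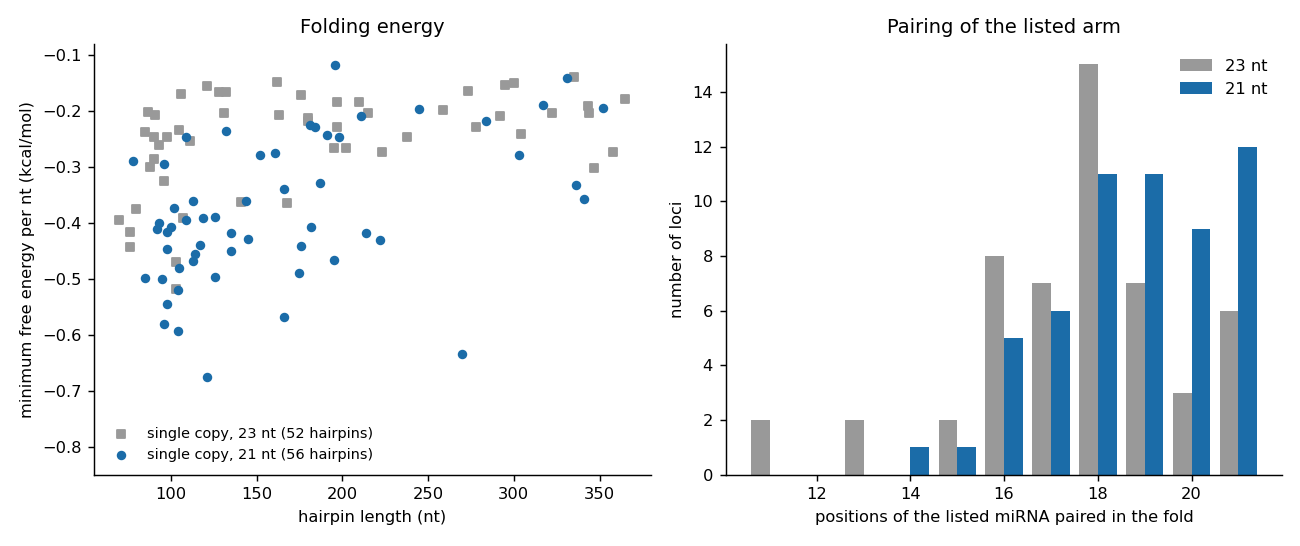
Left, minimum free energy per nt against hairpin length for the single-copy loci of 21 nt (56 hairpins) and of 23 nt (52 hairpins); right, number of loci by how many positions of the listed arm are paired in the fold. The 21-nt loci have a median of -0.40 kcal/mol per nt against -0.23, and 12 of them are paired at all 21 positions. Over all 266 hairpins of predicted loci, not drawn, 26 had a fully paired arm.

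In the degradome list, 10 of the 59 members had a pair with a transcript, or 16.9% (8.44% to 29.0%), against 57 of all 275 predicted loci (20.7%). The share was 3 of 56 in the 23-nt loci (5.36%, 1.12% to 14.9%) and 26 of 50 in the loci listed with both arms (52.0%, 37.4% to 66.3%). It was 4 of 8 in the loci left out by name, which count in the 57. Members with a pair had a median of 18.5 small RNA reads and those without one had 15. Of the 10 most abundant members only m0205 had a pair. The 10 members had 17 pairs with 17 different transcripts, and none of these transcripts was listed with another miRNA. Loci that share a sequence, and so can share a transcript, were not members. The share of such transcripts over the whole list was not computed, so this is no trait of the group. Over the whole list 469 pairs fell on 379 transcripts, with 290 pairs on 273 for known miRNAs and 179 on 119 for predicted loci. m0074 had 6 pairs, m0127 and m0178 had 2 each, and the other 7 had 1 each.

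Most of these pairs rested on a single read. CleaveLand, the program that called the sites, gives category 0 to a site that alone has the most reads of its transcript, 1 to a tied maximum, 2 to a site above the median of the transcript, 3 to one at or below the median with more than 1 read, and 4 to a single read. Of the 17 pairs 13 were in category 4 (76.5%, 50.1% to 93.2%), 3 in category 2, 1 in category 3 and 0 in categories 0 and 1. Over the whole list 14.5% of the 469 pairs were in category 0 and 47.3% in category 4. The members' pairs held 57 of the 9807 raw reads of the list.

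The alignment score, which starts at 0 for full pairing and grows with mismatches, was 4 in 10 pairs, 3.5 in 6 and 3 in 1, the pair of m0150-3p. The list goes no higher than 4, and 28.6% of all its pairs scored 3 or lower, against 5.88% of the members' pairs. All 17 sites were transcript nucleotide 10, counted from the end of the aligned stretch that faces the 5′ end of the miRNA. So were 423 of the 469 sites of the list (90.2%). The caller compared reads with predicted targets, so this place is no separate sign of cleavage. The p-value that the site caller attached was under 0.05 in 1 of the 17 pairs (5.88%), against 18.6% of the whole list.

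That pair was m0258-5p with ppa023110m, the one with the most reads in the group. The site at nucleotide 190 of the transcript had 31 raw reads (21.1 to 44.0), normalized to 15.5 by the authors, with a score of 3.5, category 3 and a caller p-value of 0.0499. Category 3 means that other positions of the same transcript had as many reads or more. The small RNA itself was rare, with 12 reads (6.20 to 20.96). Its hairpin, on scaffold 8 at 13558403 to 13558500 (plus strand), is shown with m0258-5p in capitals.
m0258 hairpin: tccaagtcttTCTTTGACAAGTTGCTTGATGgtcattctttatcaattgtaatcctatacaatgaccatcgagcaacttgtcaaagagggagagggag

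m0074-3p, the pyrimidine-rich member with 18 reads (10.7 to 28.4), had 2 pairs with 5 raw reads each (1.62 to 11.7), both in category 2. The site in ppa000115m lay at nucleotide 1188 with a score of 3.5 and a caller p-value of 0.829, and that in ppa010795m at nucleotide 244 with a score of 4 and a caller p-value of 0.969. Its other 4 pairs, with ppa001066m, ppa002310m, ppa003820m and ppa007163m, had 1 read each. The third site in category 2 was that of m0075-5p in ppa000171m at nucleotide 767, with 3 raw reads (0.619 to 8.77), a score of 4 and a caller p-value of 0.686. No pair of the group other than these and that of m0258-5p had more than 1 read, for which the interval is 0.0253 to 5.57.

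Among the single-read pairs, transcript descriptions are given here only for those of m0178-3p, m0229-5p and m0150-3p. The kinds of transcript in the group as a whole are therefore not described. m0178-3p (28 reads) was paired with ppa004938m, annotated as the acetyltransferase component of pyruvate dehydrogenase, which feeds acetyl-CoA into the citric acid cycle, at a score of 3.5. Its second pair was with ppa025698m, annotated as presequence protease PREP1, which degrades targeting peptides inside mitochondria and chloroplasts, at a score of 4. m0229-5p (55 reads) was paired with ppa004461m, annotated as an aldehyde dehydrogenase that acts on alpha-aminoadipic semialdehyde, a step of lysine breakdown, at a score of 3.5. m0150-3p (5 reads) was paired with ppa001587m, whose protein is unknown.

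The remaining pairs, all of 1 read, were those of m0054-3p with ppa009948m, of m0127-5p with ppa000066m and ppa000459m, and of m0205-5p with ppa018551m, each at a score of 4, and that of m0141-3p with ppa009462m at 3.5. m0127-5p had 45 small RNA reads, and both of its sites had the same caller p-value, 0.575. The transcript stretches of 5 single-read pairs are shown with the nucleotide of the site in capitals, which faces position 10 of the miRNA.
ppa004938m, site of m0178-3p: ctcctcctgctActtccactc
ppa025698m, site of m0178-3p: ctcccgttgctActtctactt
ppa004461m, site of m0229-5p: ctgggtcccgaGaatcctggt
ppa001587m, site of m0150-3p: tttcagattctcTacttggatt
ppa003820m, site of m0074-3p: tcgaaacagaaGaggaaagga
The miRNAs that face them are m0178-3p (cAGTGGAAgtagcaaggggaa), m0229-5p (tCCAGGATtctcgggtcatag), m0150-3p (tATCCAAGtagagaacttaaa) and m0074-3p (tTCTTTCCtctttcgtttcca).

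**Figure D5:**
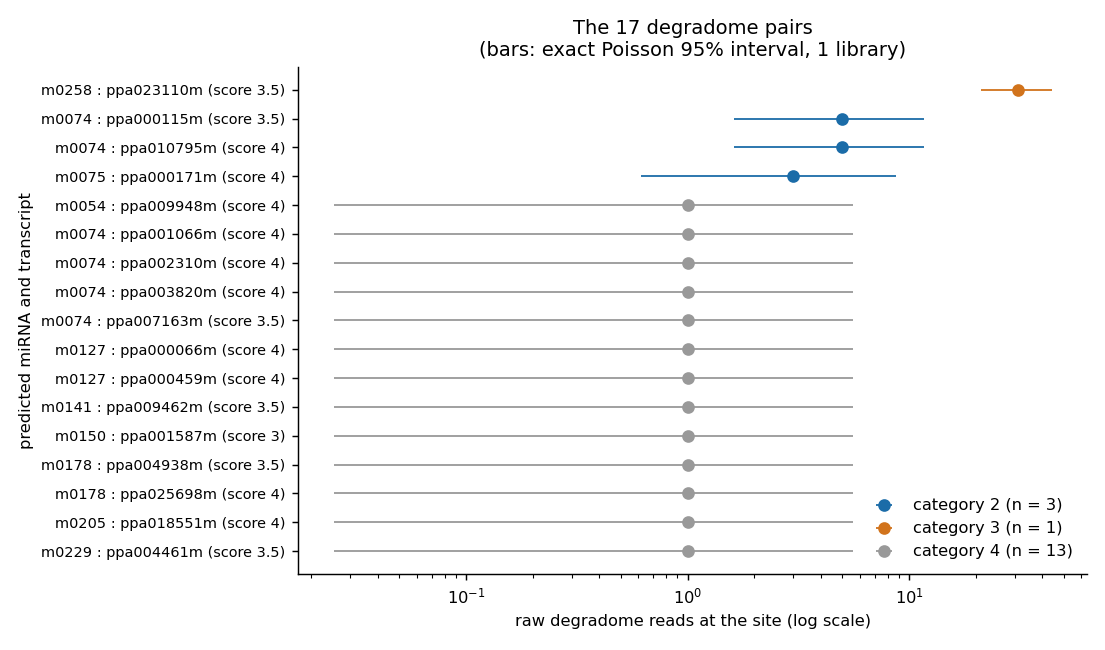
Raw degradome reads at the site of each of the 17 pairs on a log axis, coloured by category, with the alignment score in the label and exact Poisson 95% intervals from 1 library. m0258 with ppa023110m has 31 reads, 3 pairs have 3 to 5, and the other 13 have 1.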

How the data were processed

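The deposited small RNA table holds raw read counts per sequence. The authors filtered the reads, removed other RNA classes, named known miRNAs by their match to miRBase and predicted the others with MIREAP from unannotated reads placed on the genome by SOAP. The deposited degradome table gives counts (raw reads) at each site and a signal that the authors call normalized reads. It also gives the authors' score and p-value of each pair, from CleaveLand 3.0. Its thresholds and read total are not named in the sources used here.

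Members and lists were chosen with earlier results of these data known. Named members are the 10 with the highest counts, those with a degradome pair, those alike or complementary to a known miRNA, those that share a seed, and those with extreme GC content. Others, with the lowest counts, one-sided base composition or the most or fewest paired positions, were named after their values were seen. In 11 degradome rows, none of a member, the aligned range had become a date and was restored from it. Hairpins, target sites and transcript descriptions come from the study's supplementary tables. Hairpins were folded with RNAfold (ViennaRNA 2.7.2). Python 3.11.15, NumPy 2.4.6, SciPy 1.17.1 and matplotlib 3.10.9 were used, intervals are exact at the 95% level, and matching was tested on simulated sequences. Alternatives covered minimum counts, weighting by reads, the loci left out by name, mismatch limits, and degradome reads, scores and categories. Predicted targets without a degradome read were left out.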

Additional observations from a re-analysis of the deposited data

How the results depend on the processing

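With at least 10 small RNA reads required, the median count of the group was 27.5 instead of 16. The number of members with a degradome pair went from 10 to 3 with at least 2 raw degradome reads, to 2 in categories 0 to 2 and to 1 at a score of at most 3. The number of pairs went from 17 to 4, 3 and 1 under the same settings, since 13 pairs rest on 1 read. Members alike a known miRNA numbered 1 with 4 mismatches allowed, against 0 with 3 or 2. The loci left out by name were not put back for this count. Members complementary to a known miRNA numbered 35, 52 with at most 5 unpaired positions, 19 with at most 3, 14 with known miRNAs of at least 10 reads and 6 with both limits at 2 unpaired positions and 10 reads, the last chosen after seeing the data. Over all 275 predicted loci the complementary counts under these settings, in the same order, were 133, 237, 53, 37 and 12. Hairpins with a known miRNA on the other arm numbered 8, and 5 without a mismatch, also chosen after seeing the data. Over all 266 hairpins these were 21 and 15. The number of members, the shares of U and of the 5p arm and the median GC content stayed within their intervals or spread under the alternatives tried (62 members and 51.6% U with the left-out loci put back). With 1 library of each kind no replicate could be left out. No paired analysis was possible because each kind of library has 1 sample. Counts under 10 leave intervals that span several-fold, so orders among such members were not detectable at this depth.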
